A study of Mus musculus with 6 samples.

Results

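Chromatin accessibility was compared at 10 genes of the Wnt pathway, between mouse neural progenitors that carried an Nr6a1 virus and progenitors that carried a control virus. The genes were the TCF/LEF transcription factors Lef1, Tcf7, Tcf7l1 and Tcf7l2, the pathway targets Axin2, Sp5, Sp8 and Lgr5, and the ligands Wnt5a and Wnt7b. An interval of the count table was taken for a gene when its midpoint lay inside the gene body, or when its nearest protein-coding gene end belonged to that gene within 300 kb. This gave 91 intervals of 52223 in the table, 48 inside a gene and 43 outside, and all 91 were tested. The rule used position only and no measured value. Its distance limit left nothing out: the farthest interval, 251.0 kb from Sp8, was inside the limit, and 0 intervals nearest to one of the 10 genes lay beyond it.

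The assay was ATAC-seq. Tn5 transposase inserts sequencing adapters wherever chromatin is open, so that more fragments from an interval mean more accessible chromatin there. Mouse embryonic stem cells were grown with bFGF at 10 ng/ml, then with 5 µM CHIR99021 on day 2, then with 100 nM retinoic acid and 10 nM Smoothened agonist (SAG) from day 3, and with SAG alone from day 5. On day 5 the control group (mScarlet, labelled Control, n = 3) received a lentivirus for the fluorescent protein mScarlet3, and the Nr6a1OE group (n = 3) received a lentivirus for Nr6a1 joined to mScarlet3 by a 2A peptide. Both groups were sorted for mScarlet3 fluorescence on day 9, and 50000 cells entered each library. The stem cell line and the promoter of the virus are not given in the labels used here. Each library is a pool of cells, so a change in every cell and a change in the makeup of the pool cannot be told apart.

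In the Wnt pathway, ligands bind Frizzled receptors, which stops GSK3 and its partners from degrading beta-catenin. Stabilised beta-catenin then enters the nucleus and binds the TCF/LEF factors, which sit on DNA at CTTTGA-type sites and otherwise recruit repressors. Axin2, Sp5 and Lgr5 are common targets of this step. CHIR99021 switches the pathway on by blocking GSK3, and in neural progenitors Wnt signalling gives cells posterior and dorsal character. Nr6a1, also called germ cell nuclear factor, is a repressor of the nuclear receptor class with no known ligand and is known to bind direct repeats of AGGTCA with no spacer.

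Libraries held 6857763 to 8030029 fragments in intervals. Values are given in CPM, the fragment count of an interval scaled to one fixed library size after TMM normalization. An interval is called opened or closed in Nr6a1OE when edgeR's quasi-likelihood test, adjusted by Benjamini-Hochberg over all 51637 intervals tested, gave p under 0.05. Whether the 3 libraries of a group stem from separate cultures is not stated in the labels, and the p-values then reflect the spread between libraries alone, which may be technical. An interval lay within 1 kb of a RefSeq start, or of a gene end where no start is listed, for 8 of 8 neural progenitor markers and 6 of 6 neuron markers. Markers of other cells had such intervals too, at 5 of 5 neural crest, 4 of 5 endoderm, 4 of 6 mesoderm, 2 of 6 pluripotency and 2 of 6 endothelial and blood genes. Among the pluripotency genes these were Klf4 (81.9 CPM) and Esrrb (23.1 CPM), with none at Pou5f1, Nanog, Zfp42 and Dppa4. Among the endothelial and blood genes they were Tal1 (41.9 CPM) and Kdr (39.8 CPM), with none at Pecam1, Cdh5, Gata1 and Ptprc. None of these intervals was called (1.73% of all intervals were), and intervals farther from the starts of these genes were not counted here. Summed over the list, neural progenitor markers ranged from 655.2 to 682.1 CPM in mScarlet and from 655.2 to 667.6 CPM in Nr6a1OE. The neuron list had 297.0 to 310.4 CPM in mScarlet and 276.9 to 296.0 CPM in Nr6a1OE, ranges that did not overlap, with 0 intervals called. The part of these lists in the results below was not tested.

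RefSeq (GRCm38.p6, the assembly of mm10) gave 14 promoter windows, from 250 bases before to 50 bases after a start, for 7 of the 10 genes. They were searched on both strands for the TCF/LEF cores CTTTGAT and CTTTGAA, the extended nuclear receptor site AAGGTCA, the direct repeat of AGGTCA with no spacer, and the Sp box GGGCGG. The stretches below are shown because they hold the matches to the factors of this pathway or to Nr6a1's class of receptor, and because Tcf7l1 and Tcf7l2 are the genes with called intervals of high signal. Those called intervals do not cover the printed promoters. Further GGGCGG copies, farther upstream in Tcf7l1 and Tcf7l2 and in other genes, are not printed. All are printed 5′ to 3′ on the gene's strand, with the matched motif, on either strand, in capitals. They lie at chr2:70474808-70474836 (+) for Sp5, chr12:118847171-118847199 (+) for Sp8, chr11:52282596-52282619 (-) for Tcf7, chr6:72789102-72789129 (-) for Tcf7l1 and chr19:55741705-55741789 (+) for Tcf7l2.
Sp5, CTTTGAT: ggcaaggccccCTTTGATcaggaaaatcc
Sp8, CTTTGAA on the other strand: ctccgcggcacTTCAAAGccggagaggga
Tcf7, AAGGTCA on the other strand: ttccggtgcccTGACCTTtatagg
Tcf7l1, GGGCGG: ttgccccggctGGGCGGtgctgggcccg
Tcf7l2, GGGCGG on the other strand, overlapping copies joined: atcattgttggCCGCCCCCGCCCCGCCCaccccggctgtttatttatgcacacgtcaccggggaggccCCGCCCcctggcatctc

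The CTTTGAT core was found in 1 of 14 windows, that of Sp5, against 3.729% of the 32851 RefSeq windows of this length. CTTTGAA was found only at Sp8 among these genes (5.135% of all windows) and AAGGTCA only at Tcf7 (4.718% of all windows). The direct repeat was in 0 of the 14 windows and in 0.006% of all windows. GGGCGG was common, in 9 of 14 windows and in 35.658% of all windows. Windows of the same gene can overlap and share a match, as at Lef1. By gene, GGGCGG was found at 6 of the 7 genes and at 10324 of 27025 genes in all. The median GC content was 62.6% in the 14 windows and 52.7% in all. A match is a description of letters and not a measured binding site.

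Of the 91 intervals, 1 opened and 3 closed in Nr6a1OE, where 0.469% of all intervals tested opened and 1.26% closed (1.73% either way). The closed intervals belonged to Tcf7l1, Tcf7l2 and Tcf7, and the opened one to Wnt5a. The median log2 fold change over the 91 was 0.04, and 49 were above 0, against 0.0038 and 26222 of 51637 over all intervals. Without adjustment, p was under 0.05 for 4 higher and 10 lower intervals, beside 5.73% of all intervals higher and 6.87% lower (12.6% either way). The 3 libraries of a group lay wholly above or below those of the other in 12 of 91, or 13.187%, where 16.6% of all intervals did so. These counts are small, and the share of intervals whose groups did not overlap was below that of the table.

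**Figure D1:**
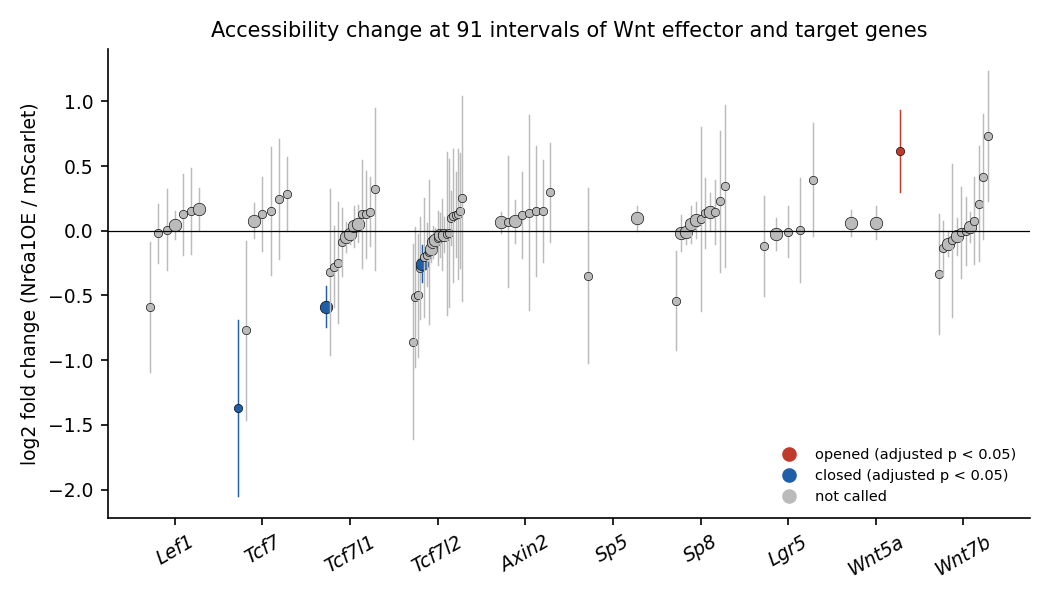
Log2 fold change (Nr6a1OE minus mScarlet) of each of the 91 intervals, grouped by gene and sorted by value, with unadjusted 95% confidence intervals as lines and larger points for intervals of at least 20 CPM. The 3 closed intervals are at Tcf7, Tcf7l1 and Tcf7l2 and the opened one is at Wnt5a, while most points lie close to 0.

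The change with the lowest p-value was at Tcf7l1 (chr6:72626371-72789045, minus strand), which encodes a TCF factor known mainly as a repressor of Wnt targets. The interval at chr6:72711125-72712283, inside the gene and 77.3 kb from its start, had 37.2, 40.2 and 37.6 CPM in mScarlet 1, 2 and 3 and 25.4, 23.6 and 27.3 CPM in Nr6a1OE 1, 2 and 3. Every Nr6a1OE library was lower than every mScarlet library. The interval fell by 0.59 on the log2 scale (SE 0.080, n = 3 per group, edgeR adjusted p = 3.0e-10). It was called without each library in turn, with edgeR adjusted p no higher than 1.67e-06, and by DESeq2 (adjusted p = 0.000147).

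No other interval close by was called. Within 50 kb of the interval lay 6 others, and 0 of them were called (1.73% of all intervals were), with log2 fold changes from -0.28 to 0.13. The nearest, 2.8 kb away and weak at 7.5 CPM, had a log2 fold change of -0.28 (edgeR adjusted p = 0.485). The intervals next on either side with more signal had 30.7 CPM and 57.0 CPM and log2 fold changes of 0.04 and -0.05. At the start of Tcf7l1 (chr6:72787310-72789726), accessibility was 143.1, 140.5 and 131.9 CPM in mScarlet and 134.8, 132.4 and 139.9 CPM in Nr6a1OE, and the groups overlapped (log2 fold change -0.03, SE 0.040, edgeR adjusted p = 0.859). This start interval, which covers the promoter stretch printed above, had the highest signal of all 91. Over its 13 intervals, Tcf7l1 had 6 above and 7 below 0.

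Tcf7l2 (chr19:55741797-55933659, plus strand), the TCF factor with the most intervals here, had 23, of which 17 were below 0 and 6 above, with a median log2 fold change of -0.06. At unadjusted edgeR p below 0.05, 4 of them were lower and 0 higher (6.87% and 5.73% of all intervals). Only 1 was called, the interval at chr19:55876624-55878178, inside the gene and 135.6 kb from its start. It had 38.6, 44.0 and 39.6 CPM in mScarlet and 36.4, 34.9 and 31.2 CPM in Nr6a1OE, so that the groups were apart by a narrow margin. The interval fell by 0.26 on the log2 scale (SE 0.073, edgeR adjusted p = 0.0336). The call was lost when mScarlet 2, mScarlet 3, Nr6a1OE 2 or Nr6a1OE 3 was left out, with edgeR adjusted p as high as 0.327, and in DESeq2 (adjusted p = 0.880).

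Neither RefSeq start of Tcf7l2 had a called interval. The start at 55741810 lies in the interval chr19:55741257-55744419, with 95.2, 102.3 and 92.4 CPM in mScarlet and 92.2, 93.5 and 90.0 CPM in Nr6a1OE. Its log2 fold change was -0.07 (SE 0.047, edgeR adjusted p = 0.572), with groups that overlapped. The other start, at 55895321, lies 10 bp from the interval chr19:55895331-55897320, 18.9 kb from the called one, which had 42.9 CPM and a log2 fold change of -0.03. The 10 intervals within 50 kb of the called one held 0 calls (1.73% of all intervals were called) and ran from -0.50 to 0.25. The largest fold change at Tcf7l2, -0.86 at chr19:55803529-55804162, rested on 1.51, 2.04 and 2.37 CPM in mScarlet against 0.710, 1.13 and 1.39 CPM in Nr6a1OE, and did not pass (edgeR adjusted p = 0.303).

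Tcf7 (chr11:52246527-52283383, minus strand) encodes TCF1, which carries out Wnt responses together with Lef1 in many progenitors. Its called interval, chr11:52314215-52314846, lies 31.1 kb outside the gene. It was among the weakest of the 91, at 4.11, 2.33 and 2.12 CPM in mScarlet and 0.994, 1.13 and 1.14 CPM in Nr6a1OE. In fragments these were 30, 16 and 17 against 7, 8 and 9. The interval fell by 1.37 on the log2 scale (SE 0.35, edgeR adjusted p = 0.00974). It was not called without mScarlet 1 (edgeR adjusted p = 0.290), the highest library, or without Nr6a1OE 1 (0.0565), and DESeq2 gave an adjusted p of 0.465.

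Of the 7 intervals of Tcf7, 5 were above 0. The other one below 0, chr11:52266026-52266349 inside the gene, had 1.51, 2.77 and 2.50 CPM in mScarlet and 1.28, 1.55 and 1.14 CPM in Nr6a1OE, groups that overlapped (log2 fold change -0.77, SE 0.35, unadjusted p = 0.029, edgeR adjusted p = 0.320). At its start (chr11:52282238-52284288, which holds the AAGGTCA match printed above), accessibility was 40.0, 40.2 and 37.5 CPM in mScarlet and 39.8, 43.0 and 41.3 CPM in Nr6a1OE (log2 fold change 0.08, SE 0.070, edgeR adjusted p = 0.709). The groups overlapped there.

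Lef1 (chr3:131110297-131224357, plus strand), the founding lymphoid enhancer factor of the family, had 7 intervals and 0 calls. Its start interval (chr3:131110223-131112579) had 69.6, 69.2 and 60.3 CPM in mScarlet and 68.8, 70.5 and 65.9 CPM in Nr6a1OE. The groups overlapped (log2 fold change 0.05, SE 0.055, edgeR adjusted p = 0.802). Its largest change, -0.59 at chr3:131137234-131137729, lay between 4.52, 2.33 and 4.50 CPM and 2.70, 2.83 and 2.15 CPM, where mScarlet 2 fell among the Nr6a1OE libraries (edgeR adjusted p = 0.28). Across the 4 TCF/LEF genes, 50 intervals gave 0 opened and 3 closed (0.469% and 1.26% of all intervals). At unadjusted p below 0.05, 1 was higher and 8 lower (5.73% and 6.87% of all intervals), and the median was -0.02. The other 6 genes, with 41 intervals, gave 1 opened and 0 closed, 3 higher and 2 lower, and a median of 0.07. Chromosome medians were -0.03 on chromosome 6 (Tcf7l1) and 0.06 on chromosome 11 (Tcf7 in the first subset, Axin2 in the second). Whether these subsets differ was not tested.

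**Figure D2:**
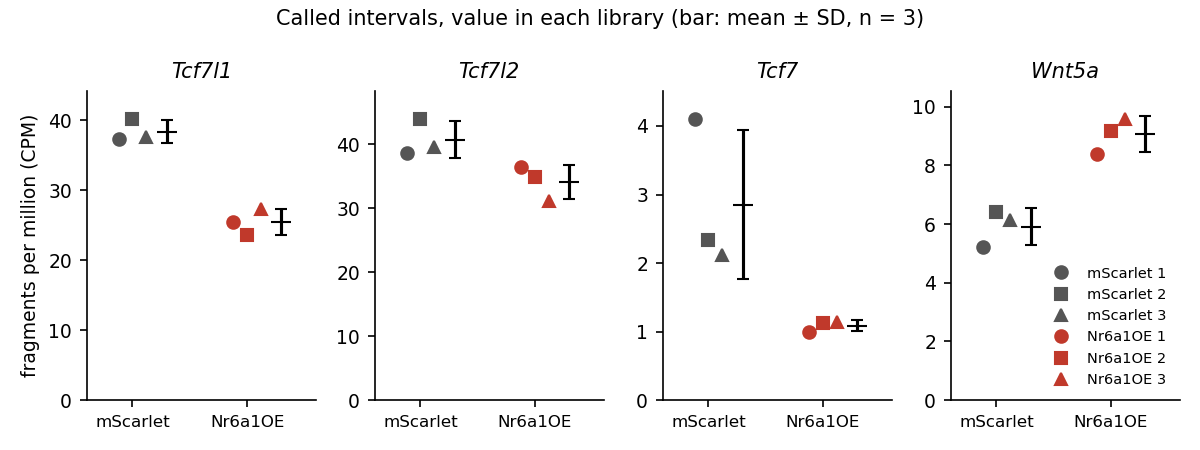
Accessibility in CPM of the 4 called intervals in each library, mScarlet on the left and Nr6a1OE on the right of each panel, with bars for the group mean ± SD (n = 3) and each panel's axis starting at 0. The Tcf7l1 libraries are far apart, from 37.2 to 40.2 against 23.6 to 27.3 CPM, while the Tcf7l2 groups nearly touch at 38.6 and 36.4 CPM.

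**Figure D3:**
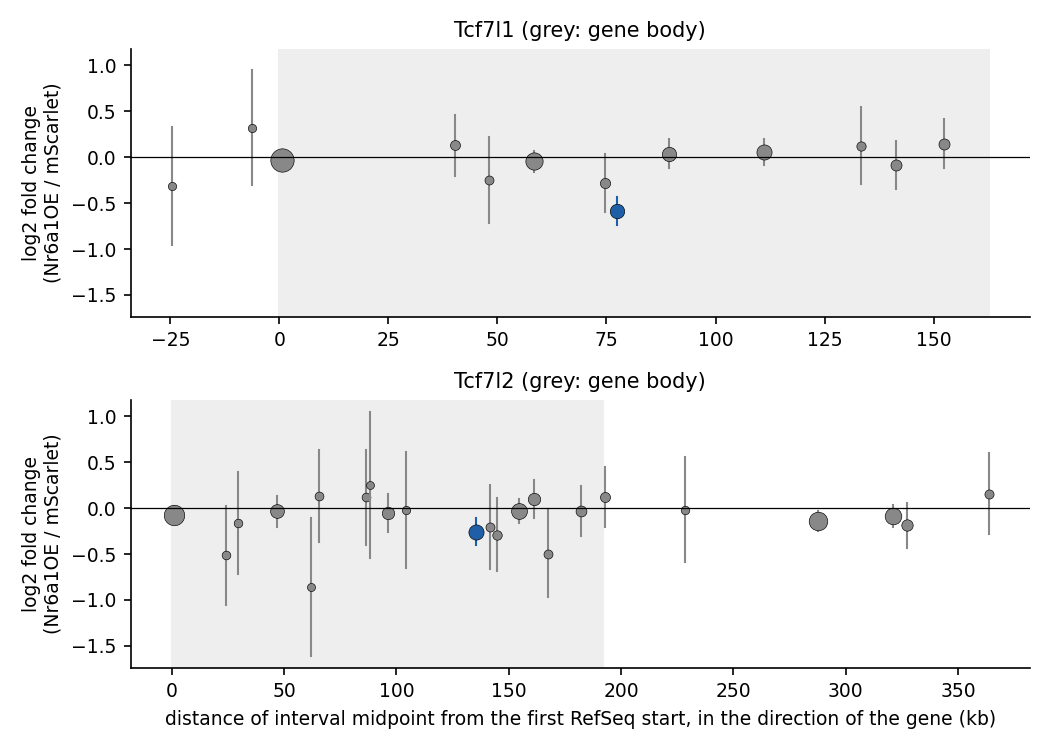
Log2 fold change of each interval of Tcf7l1 and Tcf7l2 against its distance in kb from the gene's start along the gene, with lines for the unadjusted 95% confidence intervals, larger points for higher CPM, the gene body in grey and closed intervals in blue. In each gene 1 interval was closed, at 77.3 kb from the Tcf7l1 start and 135.6 kb from the Tcf7l2 start, and no other was called. Of all intervals, 1.73% were called.

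Among the pathway targets, none of the 26 intervals of Axin2, Sp5, Sp8 and Lgr5 was called, where 1.73% of all intervals were. With so few intervals, a count of 0 does not set the targets apart from the table. Axin2 (chr11:108917828-108950783, plus strand) encodes a scaffold of the beta-catenin destruction complex and is the usual readout of Wnt activity. All 8 of its intervals had log2 fold changes above 0, from 0.07 to 0.30, with a median of 0.13 and 0 at an unadjusted p under 0.05. Chromosome 11 as a whole had a median of 0.06, the highest of the autosomes. At the Axin2 start (chr11:108920123-108922276), accessibility was 117.5, 119.8 and 110.9 CPM in mScarlet and 121.5, 122.2 and 120.1 CPM in Nr6a1OE. The groups were just apart, and the log2 fold change of 0.07 did not pass (SE 0.042, edgeR adjusted p = 0.555). The largest value, 0.30 at chr11:108893999-108894792, came from 4.24, 4.23 and 5.50 CPM against 5.68, 6.08 and 5.55 CPM (edgeR adjusted p = 0.560).

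Sp5 (chr2:70474923-70477726, plus strand) is a zinc finger repressor and a direct target of beta-catenin, and its promoter stretch above holds the CTTTGAT core. The interval that covers its start, chr2:70471851-70477387, had 84.8, 79.1 and 81.2 CPM in mScarlet and 85.7, 84.9 and 91.4 CPM in Nr6a1OE. All 3 Nr6a1OE libraries were above the mScarlet libraries, by little. The log2 fold change was 0.10 (SE 0.049, 95% interval 0.0009 to 0.19, edgeR adjusted p = 0.390), which did not pass. Its other interval, at chr2:70456107-70456604, had 1.79 CPM and a log2 fold change of -0.35 (edgeR adjusted p = 0.747).

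Sp8 (chr12:118846288-118852578, plus strand) is a related zinc finger factor with roles in limb and forebrain patterning. Its start interval (chr12:118846654-118850345), which covers the CTTTGAA match, had 92.8, 98.4 and 92.8 CPM in mScarlet and 97.3, 93.1 and 92.1 CPM in Nr6a1OE, and the groups overlapped (log2 fold change -0.01, SE 0.047, edgeR adjusted p = 0.976). Of its 11 intervals, 8 were above 0. The largest change was -0.54 at chr12:118829658-118830215, from 5.75, 7.14 and 5.995 CPM to 4.12, 2.68 and 5.93 CPM (edgeR adjusted p = 0.141). Nr6a1OE 3 lay within the mScarlet range there, and without it the log2 fold change was -0.88 with an edgeR adjusted p of 0.0245. Without Nr6a1OE 2, the lowest library, it was -0.30 (edgeR adjusted p = 0.617), and 5 of 6 leave-one-out fits did not call the interval.

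Lgr5 (chr10:115450314-115587780) encodes an R-spondin receptor that strengthens Wnt signals and marks stem cells in several epithelia. No strand was listed here for Lgr5, Wnt5a or Wnt7b, so the gene end named for each can be its start or its finish. The Lgr5 interval at its gene end, chr10:115586237-115588213, had 52.3, 50.9 and 52.6 CPM in mScarlet and 48.6, 51.3 and 53.2 CPM in Nr6a1OE (log2 fold change -0.02, SE 0.062, edgeR adjusted p = 0.929). The groups overlapped, and 3 of 5 intervals were below 0. Its largest value was 0.39 at chr10:115520589-115521890, with 2.60, 3.93 and 4.00 CPM against 4.55, 4.52 and 4.79 CPM (edgeR adjusted p = 0.469).

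Wnt5a (chr14:28504543-28527448) encodes a ligand known mostly for signalling that does not pass through beta-catenin, as in axis elongation. Its opened interval, chr14:28515470-28516065, is inside the gene and 11.2 kb from the nearer end. It had 5.20, 6.41 and 6.12 CPM in mScarlet and 8.38, 9.18 and 9.59 CPM in Nr6a1OE, or 38, 44 and 49 fragments against 59, 65 and 76. The groups did not overlap. The interval rose by 0.62 on the log2 scale (SE 0.16, edgeR adjusted p = 0.0152). It was not called without mScarlet 1 (0.141), Nr6a1OE 2 (0.0533) or Nr6a1OE 3 (0.0984), and DESeq2 gave an adjusted p of 0.631. The gene's 2 other intervals, 9.5 and 5.2 kb away and stronger at 77.5 and 48.8 CPM, both had log2 fold changes of 0.06. That at the gene end (chr14:28504659-28507785) had 77.4, 80.1 and 70.7 CPM in mScarlet and 74.4, 81.0 and 81.5 CPM in Nr6a1OE, with overlapping groups (SE 0.052, edgeR adjusted p = 0.689).

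Wnt7b (chr15:85535437-85581821), a ligand expressed in the developing nervous system, had 12 intervals, 3 inside the gene, and 0 calls (1.73% of all intervals were called). Its strongest interval was not at the gene but 52.9 kb outside, at chr15:85634240-85635267. There mScarlet had 88.4, 90.6 and 92.9 CPM and Nr6a1OE had 80.0, 87.2 and 86.4 CPM, with groups just apart (log2 fold change -0.10, SE 0.049, edgeR adjusted p = 0.357). At the gene end (chr15:85580639-85583904) the values were 58.7, 59.7 and 54.2 CPM against 56.3, 60.6 and 58.7 CPM, and the groups overlapped (log2 fold change 0.03, SE 0.059, edgeR adjusted p = 0.906). The largest change, 0.74 at chr15:85645800-85646479, came from 2.46, 2.19 and 2.50 CPM against 3.69, 3.25 and 4.92 CPM and did not pass (edgeR adjusted p = 0.124).

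The start or gene-end intervals of all 10 genes were open in both groups. Of these 10, 0 were called (1.73% of all intervals were), with log2 fold changes from -0.07 to 0.10. Per kb of interval, Tcf7l1 with 57.3 ± 2.42 CPM per kb (SD, n = 3, mScarlet) and Axin2 with 53.9 ± 2.13 CPM per kb were highest, and their libraries overlapped. Tcf7l2 followed at 30.6 ± 1.61 CPM per kb, below every Axin2 library. Lef1, Lgr5, Sp8 and Wnt5a came next, from 28.2 ± 2.22 down to 24.3 ± 1.55 CPM per kb, and from Tcf7l2 through Wnt5a each gene's mScarlet libraries overlapped those of the next. Tcf7 at 19.1 ± 0.742 CPM per kb lay below all Wnt5a libraries and overlapped Wnt7b at 17.6 ± 0.903 CPM per kb. Sp5 was lowest at 14.8 ± 0.514 CPM per kb, below every Wnt7b library, over an interval of 5537 bp. Interval edges were drawn by the authors' peak calling, so this order also carries the width of each interval.

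**Figure D4:**
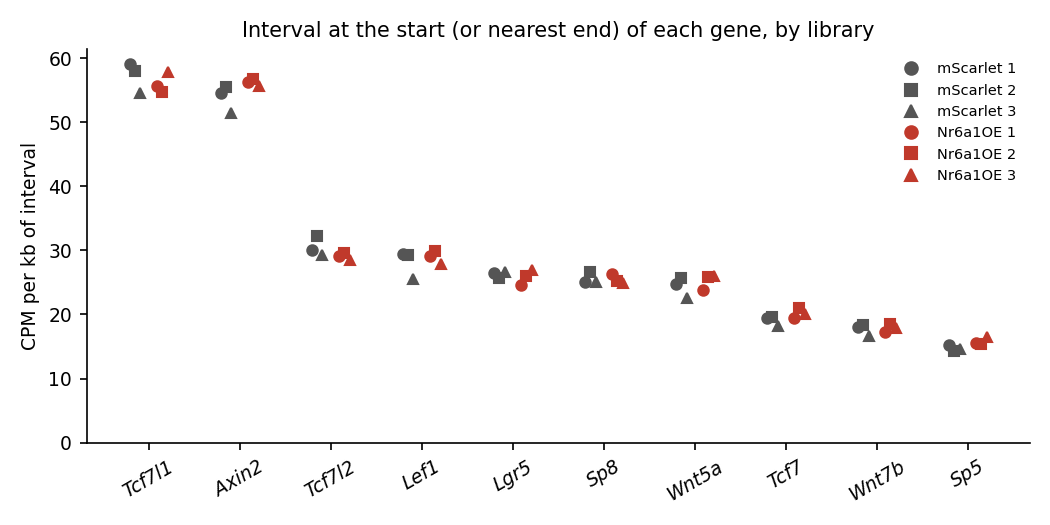
Accessibility per kb of the start or gene-end interval of each gene, in CPM per kb, with a point for each library of mScarlet and Nr6a1OE. Tcf7l1 and Axin2 stand above 50 CPM per kb and Sp5 is lowest, and no gene's start interval was called between the groups.

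Counts were also summed over all intervals of each gene and tested over 16502 genes, of which 0.867% were higher and 1.05% lower in Nr6a1OE (1.92% either way). The CPM of a gene sum is scaled to the library's total over gene sums, where an interval assigned to several genes counts more than once. It is therefore not the sum of the CPM of the gene's intervals. Of the 10 genes, 0 were higher and 1, Tcf7l2, was lower. Its sum was 404.4, 417.0 and 408.2 CPM in mScarlet and 383.6, 385.0 and 386.3 CPM in Nr6a1OE, with no overlap. The sum fell by 0.09 on the log2 scale (SE 0.026, edgeR adjusted p = 0.0320). This call was lost without any 1 of the 6 libraries (edgeR adjusted p 0.0553 to 0.107), with a limit of 100 kb (0.0573) and in DESeq2 (0.109). Among the others, Axin2 had 158.5, 157.4 and 153.5 CPM against 166.1, 165.3 and 165.9 CPM (log2 fold change 0.08, edgeR adjusted p = 0.249). Tcf7l1 had 328.5, 335.1 and 321.2 CPM against 314.7, 311.1 and 316.3 CPM (-0.06, edgeR adjusted p = 0.279). In both, the groups did not overlap and the test was not passed. How often the groups were apart over all gene sums was not counted. With chromosome medians removed, the log2 fold change was 0.03 for Axin2 (edgeR adjusted p = 0.784) and -0.03 for Tcf7l1 (0.785).

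The rest of the pathway was read from a list of 89 genes with 439 intervals tested, of which 5 opened and 4 closed (0.469% and 1.26% of all intervals), and the median log2 fold change was 0.03. Among 77 intervals of other Wnt ligands, 2 opened and 1 closed, with 14 higher and 2 lower at unadjusted p below 0.05 (5.73% and 6.87% of all intervals), 51 above 0 and a median of 0.07. An interval 4.7 kb outside Wnt1 (chr15:98797422-98799656), a dorsal midline ligand of the neural tube, opened. It rose from 62.3, 59.3 and 71.7 CPM to 76.9, 77.6 and 75.8 CPM (log2 fold change 0.24, SE 0.054, edgeR adjusted p = 0.00119, or 0.0662 without mScarlet 2). One inside Wnt3a (chr11:59263600-59265085), a ligand of posterior progenitors, rose from 33.5, 32.4 and 33.7 CPM to 44.8, 36.7 and 41.3 CPM (0.30, SE 0.073, edgeR adjusted p = 0.00634). Without Nr6a1OE 1 its adjusted p was 0.165, and with the median of chromosome 11 removed it was 0.0545. A weak interval near Wnt7a (chr6:91424158-91424393) closed, from 3.01, 2.91 and 2.37 CPM to 1.14, 0.989 and 1.14 CPM (-1.32, edgeR adjusted p = 0.0160), a call that held only when mScarlet 3 was left out, 1 of 6 such fits.

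Outside the ligands, an interval at the start or finish of Frzb (chr2:80446166-80448587), a secreted antagonist that binds Wnt proteins, rose by 0.25 on the log2 scale (edgeR adjusted p = 0.00217, or 0.141 at most with 1 library left out, lost without mScarlet 1 or Nr6a1OE 3). One nearest to Fzd4 but inside Tmem135 (chr7:89365151-89366013) fell by 0.86 on the log2 scale, from 6.57, 7.14 and 6.87 CPM to 3.41, 4.38 and 3.53 CPM (edgeR adjusted p = 0.00207), and was called without each library in turn. Near Tnfrsf19, a Wnt target, 1 interval closed (chr14:60940498-60941322, -0.52, edgeR adjusted p = 0.0451) and 1 some kilobases on opened (chr14:60942659-60943734, 0.37, edgeR adjusted p = 0.00519, lost without mScarlet 2 or Nr6a1OE 2). Intervals at Notum (chr11:120658758-120661444, 0.19, edgeR adjusted p = 0.0495), which encodes a deacylase that inactivates Wnt proteins, and inside Btrc (chr19:45458437-45459232, -0.32, edgeR adjusted p = 0.0466), which encodes the ubiquitin ligase subunit that marks beta-catenin, were near the threshold. Each of these held its call in 1 of 6 leave-one-out fits, that without Nr6a1OE 2 for Notum and that without Nr6a1OE 1 for Btrc, as did the closed Tnfrsf19 interval, without Nr6a1OE 2. With the median of chromosome 11 removed, the Notum interval had 0.14 (edgeR adjusted p = 0.272). DESeq2 called 0 of these 9 intervals.

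Summed per gene, a test added after the values were seen, 9 of the 89 genes were higher and 0 lower (0.867% and 1.05% of all genes). The ligands held 5 of the 9, of 17 ligand genes, with a median log2 fold change of 0.12 and 13 of 17 above 0. Wnt3a rose by 0.28 (58.2, 58.4 and 53.6 CPM to 70.0, 67.0 and 68.6 CPM, edgeR adjusted p = 0.000263) and was called without each library in turn. Wnt1 rose by 0.20 (98.0, 101.6 and 111.9 CPM to 118.6, 118.9 and 121.6 CPM, edgeR adjusted p = 0.000558, or 0.0513 without mScarlet 1). The other called genes were Wnt3 (0.17), Wnt4 (0.17), Wnt9b (0.18), Notum (0.20), Fzd2 (0.14), Frzb (0.23) and Ccnd1 (0.13), and none of these held in all 6 leave-one-out fits. Without mScarlet 3 the calls of Wnt3, Wnt4, Wnt9b, Notum and Fzd2 were lost, without mScarlet 1 those of Wnt4, Notum, Frzb and Ccnd1, and without mScarlet 2 that of Notum. Without Nr6a1OE 1 the calls of Wnt3, Wnt9b, Notum and Fzd2 were lost, without Nr6a1OE 2 those of Wnt4, Wnt9b, Fzd2 and Ccnd1, and without Nr6a1OE 3 those of Wnt3, Wnt4, Notum, Frzb and Ccnd1. The highest edgeR adjusted p among these fits was 0.362, for Notum.

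Wnt3 and Wnt9b are neighbours that share 4 intervals, so they are not separate evidence. The Notum sum is 1 interval, the opened one named above. The sums of Wnt1 and Frzb (2 intervals each) and Wnt3a (3 intervals) each include the opened interval named above, so they repeat those calls in part. Wnt3, Wnt3a, Wnt9b, Notum and Fzd2 lie on chromosome 11. With chromosome medians removed, 0.545% of all genes were higher, Wnt3a kept its call (edgeR adjusted p = 0.00768), and Wnt3 (0.156), Wnt9b (0.185), Notum (0.223) and Fzd2 (0.271) did not, while Wnt5b on chromosome 6, at 0.07 before, was called at 0.11 (0.0172). DESeq2 gave adjusted p of 0.140 for Fzd2 and 0.109 for Ccnd1 and no adjusted p for the other called genes. With 10% variation between cultures added, 0 of the 89 genes were called higher.

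**Figure D5:**
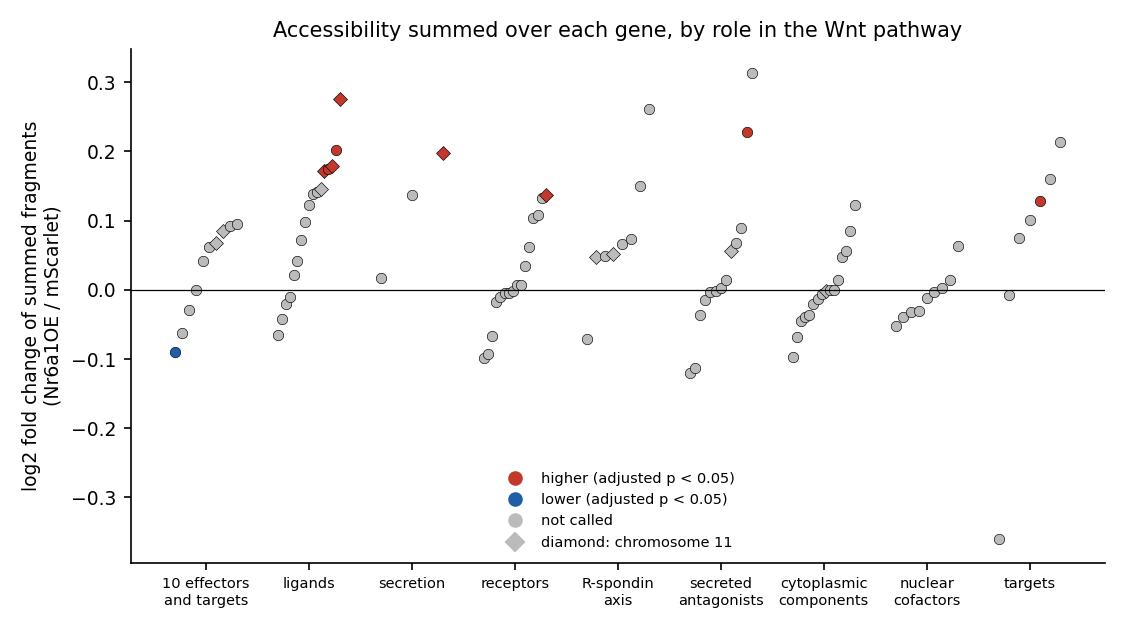
Log2 fold change (Nr6a1OE minus mScarlet) of accessibility summed per gene, for the 10 genes and for the other Wnt pathway genes by role and sorted by value, with called genes coloured and diamonds for genes on chromosome 11. Wnt3a and Wnt1 are the called ligands with the largest values, 0.28 and 0.20, and Tcf7l2 at -0.09 is the only gene called lower.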

How the data were processed

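Accessibility was measured by ATAC-seq in 3 mScarlet and 3 Nr6a1OE libraries, grouped by their titles. The authors deposited raw fragment counts per consensus interval. Per the file headers, they were made with featureCounts 2.0.1, which counted read pairs, set the smallest overlap at 0.2 of a fragment and counted a fragment in every interval it overlapped, so neighbouring intervals are not fully independent. The submitters' processing notes name mm10. For the aligner, peak caller, duplicate removal and any Tn5 shift: not given in the sources used.

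From these counts, filterByExpr removed 586 intervals, TMM scaled the libraries, and edgeR 4.0.16 (glmQLFit and glmQLFTest, R 4.3.3) compared the groups without covariates, with Benjamini-Hochberg adjustment over all intervals. The same fit was made on counts summed over the intervals of each gene, over all genes. SE values follow from each log2 fold change and F, and 95% intervals cover the spread between libraries as modelled. Depth was 6857763 to 8030029 fragments. At 20 CPM or more the SE of a log2 fold change was smaller than in weaker intervals. Same-group libraries differed beyond counting noise over intervals of at least 10 fragments, though by little. The chi-square ratio to its degrees of freedom ran from 1.046 to 1.099, where 1 is counting noise alone. The common coefficient of variation in edgeR was 1.47%, so SE and p-values rest on a small spread between libraries. Each library was kept as 1 replicate. At 100 fragments or more, Nr6a1OE 1 and 3 showed no difference beyond counting noise (chi-square test, ratio to its degrees of freedom 0.999, p = 0.547), and these were therefore summed to 1 sample in an alternative.

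Gene positions of 21887 protein-coding genes came from a RefSeq table of GRCm38.p6 without exons, so introns, exons and UTRs were not distinguished. Strand and starts came from RefSeq promoter windows where these matched. Intervals named were, for each gene, those called, the one at the start or nearest gene end, the one with the largest fold change and the one with the highest CPM, plus every called interval of the pathway list. A few neighbours were named in addition after their values were seen. The genes and lists were chosen with earlier results of these data known. Alternatives were DESeq2 1.42.0, its size factors, no low-count filter, each library left out, a replicate block, chromosome medians removed, 10% added variation, Nr6a1OE 1 and 3 summed, and a limit of 100 kb. The fit with 10% added variation used edgeR's likelihood-ratio test in place of the quasi-likelihood test.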

Additional observations from a re-analysis of the deposited data

How the results depend on the processing

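With DESeq2, 0 of the 10 genes' intervals opened and 1 closed, against 1 and 3 in edgeR, the closed one being that of Tcf7l1, and over all intervals 3 opened and 97 closed, against 242 and 652. Of the other Wnt pathway intervals DESeq2 called 0 opened and 0 closed, against 5 and 4, and of gene sums 0 members lower and 0 pathway genes higher, against 1 and 9, of which only Fzd2 and Ccnd1 had an adjusted p. With 10% added variation, 0 member intervals opened and 2 closed, those of Tcf7l1 and Tcf7 (likelihood-ratio adjusted p = 0.0153 and 0.0383). In that fit 0 pathway intervals opened and 1 closed, and 16 of all intervals opened and 175 closed. There 0 member sums were lower and 0 pathway sums higher. With a limit of 100 kb, 0 member sums were lower. Leaving out 1 library at a time, 0 to 1 member intervals opened and 2 to 3 closed, 4 to 6 pathway intervals opened and 1 to 3 closed, 98 to 190 of all intervals opened and 395 to 544 closed, 0 to 0 member sums were lower and 4 to 9 pathway sums higher, and the median of the 91 intervals ran from -0.001 to 0.0439. The cause of these changes was not tested. Values near 0 changed sign: the Tcf7l1 start interval was 0.0051 with chromosome medians removed, and the Lgr5 sum was 0.0000 there and 0.0008 with Nr6a1OE 1 and 3 summed. With 1 library left out, the start or gene-end intervals ran from -0.0204 to 0.084 at Lef1, -0.0563 to 0.0107 at Lgr5, -0.0297 to 0.0189 at Sp8, -0.0591 to 0.0001 at Tcf7l1 and -0.0144 to 0.054 at Wnt7b, and the Lgr5 sum from -0.0207 to 0.0297. Deviations of same-numbered samples were hardly correlated (0.019, -0.01 and -0.014 over 27090 intervals), beside -0.028 to 0.038 for samples of unlike number. Same-group libraries differed little beyond counting noise, so this cannot tell whether same-numbered samples share a culture or batch. The fit with the replicate number as a block called 1 opened and 3 closed member intervals and 224 opened and 617 closed of all, and lost the Notum (edgeR adjusted p = 0.0503) and Btrc (0.0542) intervals. With Nr6a1OE 1 and 3 summed, 1 member interval opened, 3 closed and 1 member sum was lower. Depth limits the weak intervals most, since 63 of the 91 had under 20 CPM.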
